A study of Mus musculus with 8 samples.

Results

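The genes described here belong to the TGF-beta and BMP pathway and were chosen by name: protein-coding genes of the deposited table whose symbols mark them as ligands (Tgfb, Bmp, Gdf and Inhb), receptors (Tgfbr, Acvr and Bmpr), SMAD proteins, latent TGF-beta binding proteins (Ltbp) or the antagonists noggin, Grem1, follistatin and the follistatin-like proteins. The rule gave 58 genes among the 30387 of the table, and 47 of them reached a mean of 5 normalized counts over the 8 libraries and were tested together with all 18800 genes that did. A normalized count is the number of reads on a gene divided by 1 factor per library and rounded, as the authors deposited it. The rule also took Bmp1 and Bmp2k, which share the name but encode a protease and a protein kinase.

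RNA had been sequenced from white adipocytes isolated from epididymal fat. The donors were mice called wild type (WT) in the labels or Ad-Yap/Taz-KO, a strain whose floxed Yap1 and Wwtr1 alleles, which encode the transcriptional regulators YAP and TAZ, are deleted by Cre from the adiponectin (Adipoq) promoter. The mice of both genotypes were fed standard diet (SD, called normal chow in the labels) or high-fat diet (HFD) for 4 weeks, from an age of 5 weeks by the labels and from a week later by the study's methods. Each of the 4 groups (WT on SD, Ad-Yap/Taz-KO on SD, WT on HFD and Ad-Yap/Taz-KO on HFD, the second and last also called the knockout) has 2 libraries. The labels number the libraries of a group as repeats, and the study's text describes its replicates as biological, from separate mice. The Cre line is constitutive, and cells of other types in the preparation keep both genes.

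TGF-beta family ligands are dimers that bring together type I and type II receptor kinases at the cell surface. TGF-betas and activins then pass the signal to one set of receptor SMAD proteins, BMPs pass it to another, and both sets enter the nucleus with the common SMAD, while the inhibitory SMAD proteins restrain the receptors. In white fat the BMP branch is known for committing precursors to the adipocyte lineage, the TGF-beta branch for restraining adipogenesis and for fibrosis, and the activin receptor encoded by Acvr1c for restraining lipolysis in mature adipocytes.

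Stretches upstream of RefSeq transcription starts (mouse assembly GRCm38.p6) were available for 43 of the 58 genes, and 4 are shown, chosen after the values were seen, for a TGF-beta ligand, an activin antagonist, a latent TGF-beta binding protein and a stress-induced ligand that all changed below. Each is written 5′ to 3′ on the strand of its gene, from 250 bases before the start to the first bases of the transcript. Capitals mark matches to 4 short motifs searched on both strands: GGAATG, the core bound by the TEAD partners of YAP and TAZ, TGANTCA, bound by AP-1, CAGACA, the core of the box bound by the SMAD proteins of the TGF-beta branch, and GGCGCC, found in BMP response elements. 
Tgfb1 (+ strand, chr7:25686752-25687007): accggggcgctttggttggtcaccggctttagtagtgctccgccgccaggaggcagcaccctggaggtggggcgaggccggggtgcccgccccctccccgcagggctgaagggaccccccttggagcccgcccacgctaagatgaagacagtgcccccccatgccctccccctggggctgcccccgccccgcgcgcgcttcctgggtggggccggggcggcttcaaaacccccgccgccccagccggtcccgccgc
Fstl3 (+ strand, chr10:79777024-79777279): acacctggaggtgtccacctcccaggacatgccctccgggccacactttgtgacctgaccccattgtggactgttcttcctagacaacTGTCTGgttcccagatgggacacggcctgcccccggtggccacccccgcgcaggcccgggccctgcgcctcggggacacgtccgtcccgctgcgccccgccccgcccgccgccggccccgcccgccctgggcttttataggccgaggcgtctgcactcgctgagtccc
Ltbp3 (+ strand, chr19:5740650-5740905): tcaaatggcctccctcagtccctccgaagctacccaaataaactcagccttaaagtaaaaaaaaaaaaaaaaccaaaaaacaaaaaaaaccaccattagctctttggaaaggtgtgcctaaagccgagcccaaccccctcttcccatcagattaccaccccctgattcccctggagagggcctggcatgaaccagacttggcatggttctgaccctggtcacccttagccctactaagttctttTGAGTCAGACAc
Gdf15, upstream start (- strand, chr8:70632451-70632706): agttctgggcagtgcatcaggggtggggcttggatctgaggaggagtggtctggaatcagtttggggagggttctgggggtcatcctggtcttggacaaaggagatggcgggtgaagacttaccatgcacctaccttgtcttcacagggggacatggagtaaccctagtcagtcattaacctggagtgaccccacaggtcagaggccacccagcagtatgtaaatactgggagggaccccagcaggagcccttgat

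In the Ltbp3 stretch the AP-1 motif TGAGTCA begins 6 bases before the start and shares its last bases with a CAGACA, and the Fstl3 stretch holds CAGACA as its reverse complement 162 bases before the start. The Tgfb1 stretch and the stretch before the upstream start of Gdf15 hold none of the 4 motifs. The window of the second, downstream start of Gdf15 holds GGAATG as its reverse complement, 137 bases before that start, in the surroundings tcctcttccctcCATTCCcaagaggaaccc. In windows from 250 bases before to 50 bases after the start, GGAATG stood in 3 of the 43 genes (7.0%) against 16.6% of 27025 genes with a window, and TGANTCA in 1 (2.3%) against 9.0%. CAGACA stood in 10 of the 43 (23.3%) against 23.6%, and GGCGCC in 10 (23.3%) against 13.4%. These matches are descriptions of the letters, and binding was not measured.

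The deposited values summed to 14890264 to 20994246 per library. The value of 1 read, estimated from which whole numbers occur in each library, was 0.7953 to 1.135 normalized counts. The targeted Wwtr1 was lower in Ad-Yap/Taz-KO on both diets, at 1957 to 2707 against 4743 to 7121 in WT, and Yap1 stood at 1549 to 2068 against 2333 to 2776, with neither gene overlapping between genotypes on either diet. Yap1 passed the test on SD and did not on HFD (adjusted p = 0.059). All 10 adipocyte markers (Adipoq, Plin1, Lep and others) were detected in every library, with a lowest value of 604, and markers of macrophages, fibroblasts and endothelial cells were detected as well. The squared difference of the pair of WT HFD libraries had a median of 5.63 times that of read sampling for genes of 1000 to 5000 reads, against 17.62 to 49.9 times in the other groups. For genes of 5 to 20 reads it was 5.69 times, against 5.36 to 9.0 times.

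Scaled to exon length, the highest levels in WT on SD were those of the co-receptor Tgfbr3 (901 to 969 normalized counts per kb of exon), the inhibitory SMAD Smad7 (849 to 951) and the activin type receptor Acvr1c (688 to 771), followed by Ltbp3, Fstl1, Bmpr1a and Tgfb1. The ranges of Tgfbr3 and Smad7 overlapped, whereas both lay above that of Acvr1c. Among the ligands Tgfb1 stood highest with a mean of 338 normalized counts per kb, then Inhbb with 244 and Gdf15 with 185. The plot of levels per kb shows that the order differed between groups: Ltbp3 had the highest mean in WT on HFD at 1106 per kb, and Fstl1 in Ad-Yap/Taz-KO on HFD at 796 per kb.

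**Figure D1:**
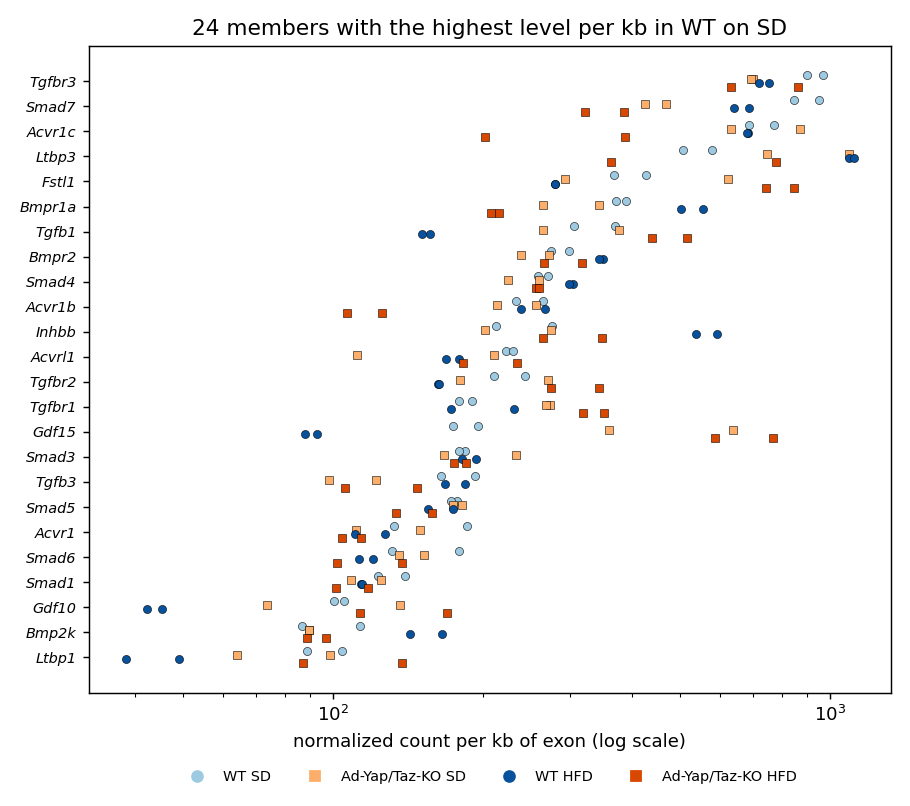
Normalized count per kb of exon (x axis, log scale) of the 24 genes with the highest mean in WT on SD (y axis), 1 point per library coloured by group. Tgfbr3 and Smad7 lead in WT on SD, with group means of 935 and 900 per kb, and Smad7 falls to means of 446 and 354 per kb in Ad-Yap/Taz-KO on SD and on HFD.

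The first comparison asked how loss of YAP and TAZ in adipocytes changed these genes on HFD. Of the 47 tested genes, 25 changed in the knockout relative to WT on HFD, 14 higher and 11 lower, against 32.2% of all tested genes called, 17.1% higher and 15.1% lower. A gene is called here when limma gave an adjusted p of 0.05 or less over all 18800 genes and the log2 fold change reached 0.59, up or down. Ligands of the TGF-beta and GDF type (Tgfb1, Tgfb2, Gdf15, Gdf10) and the TGF-beta receptors Tgfbr1 and Tgfbr2 rose, the receptors Bmpr1a, Acvr1b and Acvr1c fell, and the antagonists split, with Fst up and Fstl3 and Nog down. In the same libraries 9 of 10 adipocyte markers were lower and 9 of 10 macrophage markers higher in the knockout, their part was not tested, and in bulk RNA fewer cells of a type and less RNA per cell cannot be told apart. The median log2 fold change of the 47 was 0.023, and it was 0.095 over all tested genes. The 2 libraries of one genotype lay apart from the 2 of the other in 35 of the 47, against 69.6% of all tested genes.

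Scaling every library to the same total raised the log2 fold changes of all genes in this comparison by a median of 0.382 and gave 16 higher and 7 lower calls among the 47. Quantile normalization moved them by a median of -0.227, with single genes moving either way, and gave 10 higher and 9 lower. None of the called fold changes turned sign under any scaling. Fold changes are on the scale of log2(normalized count + 1), on which values near 0 can make the fold of a low gene smaller or larger than the ratio of its mean counts, with the SE of the limma fit after the ± sign, and all group statements rest on n = 2 libraries.

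**Figure D2:**
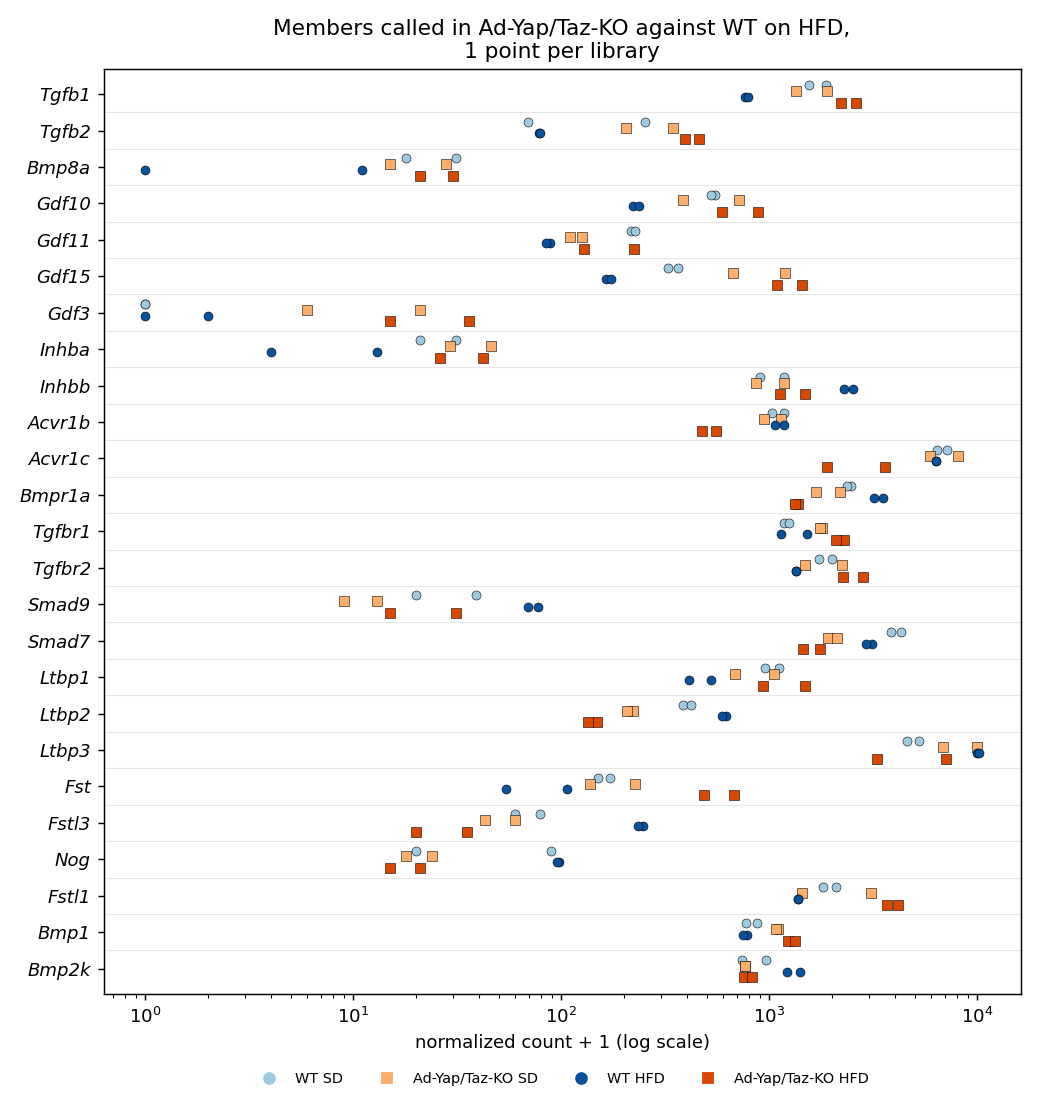
Normalized count + 1 (x axis, log scale) of the 25 genes called between genotypes on HFD (y axis), 1 point per library, with groups in 4 colours. The dark blue WT HFD points and the dark orange Ad-Yap/Taz-KO HFD points do not overlap in any row. The SD points of the genotypes are separate in 10 of these genes, against 45% of all tested genes, in the direction seen on HFD in Gdf3, Gdf15, Bmpr1a, Tgfbr1, Smad7, Smad9, Ltbp2 and Bmp1 and in the opposite direction in Gdf11 and Ltbp3.

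Of the 3 TGF-beta ligands, 2 rose in Ad-Yap/Taz-KO on HFD. Tgfb1 (GRCm38 chr7:25687002-25705077, + strand), the main TGF-beta isoform in most tissues, stood at 1864 and 1542 in WT on SD, 1894 and 1336 in Ad-Yap/Taz-KO on SD, 761 and 791 in WT on HFD, and 2212 and 2602 in Ad-Yap/Taz-KO on HFD. Both Ad-Yap/Taz-KO HFD libraries were above the other 6, both WT HFD libraries were below them, and the genotypes overlapped on SD. On HFD it was 3.09-fold higher in Ad-Yap/Taz-KO (log2 fold change 1.63 ± 0.19, adjusted p = 3.9e-05). Tgfb2, a second isoform, stood at 252 and 68 in WT on SD, 344 and 204 in Ad-Yap/Taz-KO on SD, 77 and 78 in WT on HFD, and 391 and 457 in Ad-Yap/Taz-KO on HFD. Its Ad-Yap/Taz-KO HFD libraries were again the highest of the 8, while WT on SD spread widely and reached down to the WT HFD level. On HFD the knockout was 5.4-fold higher (log2 fold change 2.43 ± 0.47, adjusted p = 0.0018). Tgfb3, the remaining isoform, stood at 558 and 654 in WT on SD, 412 and 332 in Ad-Yap/Taz-KO on SD, 624 and 568 in WT on HFD, and 357 and 499 in Ad-Yap/Taz-KO on HFD, below WT in every knockout library of the same diet, and did not pass the test (adjusted p = 0.092 on HFD and 0.091 on SD).

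Among the 5 tested BMP ligands 1 was called, Bmp8a, and it was low. Bmp8a stood at 17 and 30 in WT on SD, 27 and 14 in Ad-Yap/Taz-KO on SD, 10 and 0 in WT on HFD, and 20 and 29 in Ad-Yap/Taz-KO on HFD. The WT HFD libraries were the lowest of the 8 and the other groups overlapped (log2 fold change 2.92 ± 1.02, adjusted p = 0.042 for the knockout effect on HFD). The call for Bmp8a was lost when WT SD replicate 1, WT SD replicate 2, WT HFD replicate 2, Ad-Yap/Taz-KO HFD replicate 1 or Ad-Yap/Taz-KO HFD replicate 2 was left out (adjusted p 0.063 to 0.34). It was also lost with a pseudocount of 0.1, no filter on low values, quantile normalization, a model of just the 2 groups compared or the WT HFD libraries averaged (adjusted p 0.062 to 0.15). On the log2 scale the difference was 4.65 without WT HFD replicate 1, 1.19 without WT HFD replicate 2, and 4.59 with a pseudocount of 0.1. Its relative Bmp8b was below the filter. Reads that fit several places were left out of the counts, and whether this lowered the level of either gene was not tested. Bmp4, which commits precursors to the adipocyte lineage, stood at 129 and 109 in WT on SD, 85 and 114 in Ad-Yap/Taz-KO on SD, 202 and 170 in WT on HFD, and 88 and 137 in Ad-Yap/Taz-KO on HFD, with the knockout below WT on HFD and no overlap, without passing the test (adjusted p = 0.093). Bmp2, Bmp5 and Bmp6 overlapped between the genotypes on HFD, with adjusted p from 0.34 to 0.97. A share of 46.7% of the exon bases of Bmp5 lie opposite the antisense gene Gm26903, which held at most 1 normalized count in any library.

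Of the 6 tested GDF ligands 4 rose in Ad-Yap/Taz-KO on HFD and none fell. Of those that rose, Gdf3 was tested only because the knockout libraries, where it was high, lifted its mean over the filter. Gdf15 (chr8:70629393-70632456, - strand), a cytokine induced by cell stress that lowers food intake through a receptor in the hindbrain, stood at 362 and 323 in WT on SD, 1181 and 665 in Ad-Yap/Taz-KO on SD, 163 and 172 in WT on HFD, and 1426 and 1088 in Ad-Yap/Taz-KO on HFD. The order of the groups was WT on HFD, WT on SD and then the knockout on either diet, and the genotypes were separate on both diets. It was 7.4-fold higher on HFD (log2 fold change 2.89 ± 0.25, adjusted p = 4.1e-06), the smallest adjusted p among the 47 genes. Gdf10, a secreted family member, stood at 548 and 523 in WT on SD, 712 and 383 in Ad-Yap/Taz-KO on SD, 220 and 236 in WT on HFD, and 590 and 885 in Ad-Yap/Taz-KO on HFD. WT on HFD was the lowest group, and the knockout on SD overlapped both remaining groups (log2 fold change 1.66 ± 0.28, adjusted p = 0.00065 on HFD).

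Gdf11, a close relative of myostatin, stood at 215 and 224 in WT on SD, 125 and 109 in Ad-Yap/Taz-KO on SD, 87 and 83 in WT on HFD, and 128 and 223 in Ad-Yap/Taz-KO on HFD. The WT HFD libraries were the lowest and the WT SD libraries among the highest, and the knockout HFD libraries lay above WT HFD (log2 fold change 0.98 ± 0.31, adjusted p = 0.028). The call for Gdf11 was lost when WT HFD replicate 1, WT HFD replicate 2 or Ad-Yap/Taz-KO HFD replicate 2 was left out (adjusted p 0.095 to 0.27). Other settings that lost it were no filter on low values, quantile normalization, a model of just the 2 groups compared or the WT HFD libraries averaged (adjusted p 0.053 to 0.12). Gdf3, a ligand of the receptor encoded by Acvr1c, had at most 1 normalized count in any WT library and stood at 0 and 0 in WT on SD, 20 and 5 in Ad-Yap/Taz-KO on SD, 1 and 0 in WT on HFD, and 14 and 35 in Ad-Yap/Taz-KO on HFD. In estimated reads, that was 59 in the pooled Ad-Yap/Taz-KO HFD libraries and 1 in the pooled WT HFD libraries. The depth-corrected ratio was 50.8, with an exact 95% interval of 8.78 to 2040 that covers counting error only (adjusted p = 0.022 by limma). Gdf3 passed the filter on mean level only through the Ad-Yap/Taz-KO libraries, where it was high, so its call is a description. The call for Gdf3 was lost when WT HFD replicate 2 or Ad-Yap/Taz-KO HFD replicate 2 was left out (adjusted p 0.11 to 0.18). It was also lost with a pseudocount of 0.1, quantile normalization or the WT HFD libraries averaged (adjusted p 0.061 to 0.084). Gdf6 and Gdf9 stood at no more than 51 normalized counts in any library and were not called (adjusted p = 0.19 and 0.16 on HFD). Gdf9 passed on HFD in a model of just the 2 groups compared.

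The activin beta chains moved in opposite directions on HFD. Inhbb, which encodes the chain of activin B, stood at 904 and 1176 in WT on SD, 1168 and 862 in Ad-Yap/Taz-KO on SD, 2528 and 2284 in WT on HFD, and 1127 and 1481 in Ad-Yap/Taz-KO on HFD. The WT HFD libraries were above the 6 others, which overlapped with each other. Ad-Yap/Taz-KO was 1.86-fold lower on HFD (log2 fold change -0.89 ± 0.20, adjusted p = 0.0046). The call for Inhbb was lost when WT HFD replicate 1 was left out (adjusted p = 0.058). The call was also lost with libraries scaled to the same total (log2 fold change -0.51). Inhba, the chain of activin A, was low, at 30 and 20 in WT on SD, 45 and 28 in Ad-Yap/Taz-KO on SD, 3 and 12 in WT on HFD, and 25 and 41 in Ad-Yap/Taz-KO on HFD. Here WT on HFD was the lowest group (log2 fold change 2.20 ± 0.72, adjusted p = 0.032 on HFD). On the log2 scale the difference was 1.35 without WT HFD replicate 1 and 3.05 without WT HFD replicate 2. The call for Inhba was lost when WT HFD replicate 1, Ad-Yap/Taz-KO HFD replicate 1 or Ad-Yap/Taz-KO HFD replicate 2 was left out (adjusted p 0.057 to 0.21). Other settings that lost it were no filter on low values, quantile normalization, a model of just the 2 groups compared or the WT HFD libraries averaged (adjusted p 0.078 to 0.13).

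Of the 7 type I receptors, 3 fell and 1 rose in Ad-Yap/Taz-KO on HFD. Bmpr1a, a receptor for BMP ligands, stood at 2465 and 2362 in WT on SD, 1681 and 2181 in Ad-Yap/Taz-KO on SD, 3192 and 3532 in WT on HFD, and 1371 and 1323 in Ad-Yap/Taz-KO on HFD. WT on HFD was the highest group and Ad-Yap/Taz-KO on HFD the lowest, with both SD groups between them. On HFD the knockout was 2.49-fold lower (log2 fold change -1.32 ± 0.16, adjusted p = 5.6e-05). Acvr1b, a type I receptor for activins, stood at 1171 and 1032 in WT on SD, 945 and 1132 in Ad-Yap/Taz-KO on SD, 1058 and 1180 in WT on HFD, and 555 and 471 in Ad-Yap/Taz-KO on HFD. The 2 Ad-Yap/Taz-KO HFD libraries lay below the other 6, which overlapped with each other. It was 2.18-fold lower on HFD (log2 fold change -1.13 ± 0.17, adjusted p = 0.00038).

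Acvr1c, the activin type receptor that is enriched in mature adipocytes, stood at 7167 and 6397 in WT on SD, 5882 and 8080 in Ad-Yap/Taz-KO on SD, 6349 and 6318 in WT on HFD, and 3600 and 1881 in Ad-Yap/Taz-KO on HFD. Again the Ad-Yap/Taz-KO HFD libraries alone were low, and by ratio they differed from each other more than the libraries of any other group. It was 2.43-fold lower on HFD (log2 fold change -1.28 ± 0.25, adjusted p = 0.0018). Tgfbr1, the type I receptor of TGF-beta, stood at 1172 and 1246 in WT on SD, 1785 and 1756 in Ad-Yap/Taz-KO on SD, 1130 and 1512 in WT on HFD, and 2291 and 2078 in Ad-Yap/Taz-KO on HFD. Both Ad-Yap/Taz-KO groups were above both WT groups. The difference passed the test on HFD, where the knockout was 1.67-fold higher (log2 fold change 0.74 ± 0.17, adjusted p = 0.0046), and missed it on SD (log2 fold change 0.55 ± 0.17, adjusted p = 0.091). The call for Tgfbr1 was lost when WT HFD replicate 1 was left out (adjusted p = 0.09).

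The other 3 type I receptors were not called on HFD. Acvr1, a BMP receptor, stood at 898 and 642 in WT on SD, 723 and 537 in Ad-Yap/Taz-KO on SD, 535 and 615 in WT on HFD, and 549 and 503 in Ad-Yap/Taz-KO on HFD, with a knockout effect on HFD of -0.13 ± 0.21, adjusted p = 0.68. Acvrl1, a receptor of endothelial cells, stood at 952 and 982 in WT on SD, 899 and 476 in Ad-Yap/Taz-KO on SD, 765 and 719 in WT on HFD, and 779 and 1001 in Ad-Yap/Taz-KO on HFD, with an effect on HFD of 0.25 ± 0.25, adjusted p = 0.47. Bmpr1b stood at no more than 45 normalized counts in any library (adjusted p = 0.19 on HFD).

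Among the 4 type II receptors, 1 rose on HFD. Tgfbr2, the type II receptor of TGF-beta, stood at 1989 and 1723 in WT on SD, 2222 and 1477 in Ad-Yap/Taz-KO on SD, 1334 and 1341 in WT on HFD, and 2254 and 2812 in Ad-Yap/Taz-KO on HFD. The Ad-Yap/Taz-KO HFD libraries were the 2 highest and the WT HFD libraries the 2 lowest. On HFD the knockout was 1.88-fold higher (log2 fold change 0.91 ± 0.20, adjusted p = 0.0035). Bmpr2, the type II receptor of BMPs, stood at 5368 and 4940 in WT on SD, 4897 and 4296 in Ad-Yap/Taz-KO on SD, 6278 and 6173 in WT on HFD, and 4781 and 5695 in Ad-Yap/Taz-KO on HFD, with the knockout below WT on HFD and no overlap, without passing the test (-0.25 ± 0.15, adjusted p = 0.21). The activin type II receptors Acvr2a and Acvr2b did not pass either (0.43 ± 0.19, adjusted p = 0.1 and -0.18 ± 0.45, adjusted p = 0.79 on HFD). With libraries scaled to the same total Acvr2a passed on HFD (log2 fold change 0.817). Of the co-receptors, Tgfbr3 (betaglycan), which presents TGF-beta to its receptors, stood at 6341 and 5897 in WT on SD, 4586 and 4539 in Ad-Yap/Taz-KO on SD, 4946 and 4707 in WT on HFD, and 4148 and 5662 in Ad-Yap/Taz-KO on HFD, and its genotypes overlapped on HFD (0.01 ± 0.16, adjusted p = 0.98). Tgfbr3l was low, at 3 and 3 in WT on SD, 9 and 6 in Ad-Yap/Taz-KO on SD, 0 and 4 in WT on HFD, and 18 and 14 in Ad-Yap/Taz-KO on HFD. The genotypes were separate on HFD without passing the test (log2 fold change 2.92 ± 1.10, adjusted p = 0.057). It passed with a pseudocount of 8 and with libraries scaled to the same total. Of its exon bases, 52.2% are shared with Gm49320 on the same strand.

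Of the 6 receptor and common SMAD genes, 1 was called on HFD. Smad3, which carries the TGF-beta and activin signal, stood at 1022 and 992 in WT on SD, 926 and 1296 in Ad-Yap/Taz-KO on SD, 1075 and 1008 in WT on HFD, and 1025 and 969 in Ad-Yap/Taz-KO on HFD, and its partner Smad2 at 717 and 687 in WT on SD, 699 and 584 in Ad-Yap/Taz-KO on SD, 880 and 932 in WT on HFD, and 685 and 642 in Ad-Yap/Taz-KO on HFD. The libraries of the 2 genotypes overlapped in Smad3 (-0.06 ± 0.18, adjusted p = 0.81 on HFD) and were separate on HFD in Smad2 (-0.45 ± 0.17, adjusted p = 0.056). Smad1 and Smad5, which carry the BMP signal, ranged over all libraries from 635 to 874 and from 993 to 1349, with effects on HFD of -0.06 ± 0.17, adjusted p = 0.81 and -0.18 ± 0.16, adjusted p = 0.41. Smad4, the common partner, ranged from 835 to 1127 (-0.22 ± 0.16, adjusted p = 0.29 on HFD). Smad9, the third BMP SMAD, was low and stood at 38 and 19 in WT on SD, 12 and 8 in Ad-Yap/Taz-KO on SD, 68 and 76 in WT on HFD, and 14 and 30 in Ad-Yap/Taz-KO on HFD. Both WT HFD libraries were above all others (log2 fold change -1.76 ± 0.63, adjusted p = 0.047 on HFD). The call for Smad9 was lost when WT SD replicate 1, WT SD replicate 2, WT HFD replicate 1, WT HFD replicate 2, Ad-Yap/Taz-KO HFD replicate 1 or Ad-Yap/Taz-KO HFD replicate 2 was left out (adjusted p 0.052 to 0.24). The call was missed too with a pseudocount of 0.1, no filter on low values, libraries scaled to the same total, upper-quartile scaling, a replicate block or the WT HFD libraries averaged (adjusted p 0.057 to 0.17).

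Smad7 (chr18:75367529-75395935, + strand), an inhibitory SMAD that is itself induced by TGF-beta signalling and targets the receptors for degradation, stood at 3837 and 4301 in WT on SD, 1916 and 2116 in Ad-Yap/Taz-KO on SD, 3105 and 2903 in WT on HFD, and 1455 and 1743 in Ad-Yap/Taz-KO on HFD. Every Ad-Yap/Taz-KO library was below every WT library. It was 1.89-fold lower on HFD (log2 fold change -0.91 ± 0.15, adjusted p = 0.00066) and 2.02-fold lower on SD (log2 fold change -1.01 ± 0.15, adjusted p = 0.0015). With libraries scaled to the same total the effect on HFD was -0.53 (adjusted p = 0.027), which is below the fold limit, while the SD call remained under all 11 other settings tried. Smad6, the other inhibitory SMAD, stood at 574 and 421 in WT on SD, 488 and 436 in Ad-Yap/Taz-KO on SD, 386 and 362 in WT on HFD, and 327 and 441 in Ad-Yap/Taz-KO on HFD, with overlapping genotypes on both diets (0.02 ± 0.22, adjusted p = 0.95 on HFD).

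Latent TGF-beta binding proteins hold secreted TGF-beta in the extracellular matrix until it is activated, and 3 of the 4 changed on HFD, in different directions. Ltbp2 (chr12:84783212-84876532, - strand), a matrix protein of this family that does not bind TGF-beta covalently, stood at 382 and 418 in WT on SD, 219 and 206 in Ad-Yap/Taz-KO on SD, 618 and 593 in WT on HFD, and 148 and 134 in Ad-Yap/Taz-KO on HFD. As in Smad7, every knockout library was below every WT library, and the WT HFD libraries were the highest. It was 4.28-fold lower on HFD (log2 fold change -2.10 ± 0.21, adjusted p = 1.1e-05). Ltbp1, which binds the latent forms of TGF-beta, stood at 1117 and 948 in WT on SD, 1054 and 686 in Ad-Yap/Taz-KO on SD, 409 and 523 in WT on HFD, and 932 and 1474 in Ad-Yap/Taz-KO on HFD. The WT HFD libraries were the lowest, and the knockout was 2.53-fold higher on HFD (log2 fold change 1.34 ± 0.25, adjusted p = 0.0015).

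Ltbp3, another binder of latent TGF-beta, had the highest normalized counts of the family, at 4601 and 5249 in WT on SD, 6791 and 9911 in Ad-Yap/Taz-KO on SD, 9906 and 10152 in WT on HFD, and 7061 and 3288 in Ad-Yap/Taz-KO on HFD. Levels in WT on HFD were high with close libraries, and the knockout HFD libraries were below it with a wide spread. The knockout was 2.08-fold lower on HFD (log2 fold change -1.06 ± 0.28, adjusted p = 0.012). The call for Ltbp3 was lost when WT HFD replicate 1, WT HFD replicate 2 or Ad-Yap/Taz-KO HFD replicate 2 was left out (adjusted p 0.071 to 0.11). It was also lost with no filter on low values, quantile normalization, a model of just the 2 groups compared or the WT HFD libraries averaged (adjusted p 0.053 to 0.092). Ltbp4 stood at 619 and 482 in WT on SD, 600 and 230 in Ad-Yap/Taz-KO on SD, 536 and 662 in WT on HFD, and 566 and 806 in Ad-Yap/Taz-KO on HFD and overlapped between the genotypes on HFD (0.18 ± 0.35, adjusted p = 0.72).

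The 3 tested secreted antagonists described here changed on HFD, 1 upward and 2 downward. Fst, follistatin, which binds and neutralises activins, stood at 149 and 170 in WT on SD, 225 and 137 in Ad-Yap/Taz-KO on SD, 105 and 53 in WT on HFD, and 486 and 675 in Ad-Yap/Taz-KO on HFD. The Ad-Yap/Taz-KO HFD libraries were far above the other 6 and the WT HFD libraries were the 2 lowest. On HFD it was 7.58-fold higher in the knockout (log2 fold change 2.92 ± 0.35, adjusted p = 5.5e-05). Fstl3, a second activin-binding protein, moved the other way and stood at 59 and 78 in WT on SD, 59 and 42 in Ad-Yap/Taz-KO on SD, 246 and 232 in WT on HFD, and 34 and 19 in Ad-Yap/Taz-KO on HFD. WT on HFD stood above all other groups and Ad-Yap/Taz-KO on HFD below them. It was 9.07-fold lower on HFD (log2 fold change -3.18 ± 0.42, adjusted p = 0.00011). A share of 47.3% of its exon bases lies opposite Prss57 on the other strand, which held at most 3 normalized counts in any library.

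Nog, noggin, a BMP antagonist, stood at 88 and 19 in WT on SD, 23 and 17 in Ad-Yap/Taz-KO on SD, 96 and 94 in WT on HFD, and 20 and 14 in Ad-Yap/Taz-KO on HFD. A single WT SD library was close to the WT HFD libraries and the other as low as the knockout libraries (log2 fold change -2.44 ± 0.66, adjusted p = 0.013 on HFD). The call for Nog was lost when WT HFD replicate 1, WT HFD replicate 2 or Ad-Yap/Taz-KO HFD replicate 2 was left out (adjusted p 0.071 to 0.083). Other settings that lost it were no filter on low values or the WT HFD libraries averaged (adjusted p 0.051 to 0.079). Fstl1, a secreted glycoprotein of mesenchymal cells with a follistatin-like domain, stood at 2099 and 1810 in WT on SD, 3072 and 1439 in Ad-Yap/Taz-KO on SD, 1376 and 1376 in WT on HFD, and 3661 and 4160 in Ad-Yap/Taz-KO on HFD. The knockout HFD libraries were the 2 highest, 2.83-fold above WT on HFD (log2 fold change 1.5 ± 0.26, adjusted p = 0.00092).

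Of the genes that share the name of the BMP ligands but encode enzymes, Bmp1, a protease that trims procollagen, stood at 870 and 772 in WT on SD, 1096 and 1070 in Ad-Yap/Taz-KO on SD, 776 and 744 in WT on HFD, and 1225 and 1330 in Ad-Yap/Taz-KO on HFD. All knockout libraries were above all WT libraries, and the difference passed the test on HFD (log2 fold change 0.75 ± 0.16, adjusted p = 0.0029) and not on SD (log2 fold change 0.40 ± 0.16, adjusted p = 0.2). Bmp2k, a protein kinase, stood at 736 and 962 in WT on SD, 759 and 759 in Ad-Yap/Taz-KO on SD, 1404 and 1213 in WT on HFD, and 753 and 821 in Ad-Yap/Taz-KO on HFD. Its WT HFD libraries were above the other groups, which overlapped (log2 fold change -0.73 ± 0.18, adjusted p = 0.007 on HFD). The call for Bmp2k was lost when WT HFD replicate 1 was left out (adjusted p = 0.089). It was also lost with libraries scaled to the same total (log2 fold change -0.34, adjusted p = 0.17) and with the WT HFD libraries averaged (adjusted p = 0.058). A further loss came with quantile normalization, where the log2 fold change of -0.587 missed the fold limit. Exons of Bmp2k lie in part opposite those of Paqr3, and whether the counting used strand is not stated. The 11 genes below the filter were Bmp7, Bmp8b, Bmp10, Bmp15, Gdf2, Gdf5, Gdf7, Inhbc, Inhbe, Grem1 and Fstl4, and none of them exceeded 14 normalized counts in any library.

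Markers of cell types moved with these changes. Of 10 adipocyte markers, 9 were lower in Ad-Yap/Taz-KO on HFD, and their summed normalized counts were 211752 and 218344 in WT on SD, 169777 and 245934 in Ad-Yap/Taz-KO on SD, 384146 and 375938 in WT on HFD, and 190080 and 95513 in Ad-Yap/Taz-KO on HFD. Of 10 macrophage markers, 9 were higher, with sums of 4610 and 4587 in WT on SD, 27242 and 15072 in Ad-Yap/Taz-KO on SD, 2133 and 2255 in WT on HFD, and 28359 and 26774 in Ad-Yap/Taz-KO on HFD. Of 10 fibroblast and progenitor markers, 8 were higher, with sums of 36114 and 29930 in WT on SD, 51839 and 32937 in Ad-Yap/Taz-KO on SD, 22200 and 22659 in WT on HFD, and 69993 and 78636 in Ad-Yap/Taz-KO on HFD. Among the macrophage markers, Fcgr1 was at 0 in 1 WT HFD library and no other was at 0 in any library, and no adipocyte or fibroblast marker was at 0. Of 8 endothelial markers, 3 were higher on HFD, with sums of 16040 to 16533 in WT and 21294 to 32648 in Ad-Yap/Taz-KO, and 3 of 6 tested lymphocyte markers were higher, with sums of 45 to 52 and 174 to 312. Of 6 mural markers, 2 were higher and 2 lower (sums of 11055 to 11232 and 8213 to 11077), and of 6 mesothelial markers 1 was higher and 1 lower (sums of 179 to 214 and 327 to 715). Most of the mesothelial sum in Ad-Yap/Taz-KO on HFD was Wt1, at 310 and 531 against 46 and 54 in WT on HFD. The median log2 fold change of the mesothelial list was -1.144. The part of these cell types in the results was not tested.

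**Figure D3:**
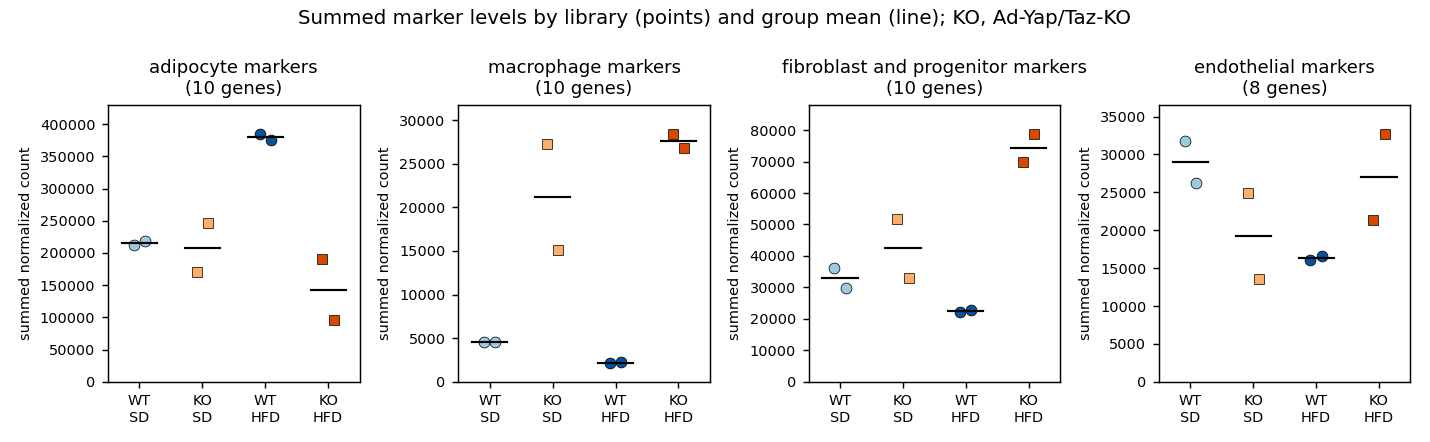
Summed normalized counts of 4 marker lists (y axes, each from 0) by group (x axes), with points for libraries and a line for the mean of 2. On HFD the adipocyte sum is 95513 and 190080 in Ad-Yap/Taz-KO against 384146 and 375938 in WT, while the macrophage and fibroblast sums are higher in Ad-Yap/Taz-KO.

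Each level was also divided by a marker sum of the same library, a calculation added after the sums were seen and given without a test. Because the adipocyte sum was lower and the other sums were higher in the knockout on HFD, all 14 genes that rose stayed above WT per adipocyte sum and all 11 that fell stayed below it per macrophage and per fibroblast sum, as did 100% of all genes called in those directions. Per adipocyte sum, of the 11 genes that fell Ltbp2, Fstl3 and Nog were still below WT in both knockout libraries, Inhbb, Acvr1b, Bmpr1a, Smad9 and Smad7 overlapped, and Acvr1c, Ltbp3 and Bmp2k were above WT. Of all genes called lower on HFD, 16% were still below WT per adipocyte sum, 33.7% overlapped and 50.3% were above. Acvr1c stood at 16.5 and 16.8 per 1000 adipocyte-marker counts in WT on HFD, 18.9 and 19.7 in Ad-Yap/Taz-KO on HFD, and 29.3 or more in the SD libraries. Its ratio was lower on HFD than on SD in each genotype. Lep, a gene of the adipocyte sum, stood at 72885 and 73642 in WT on HFD and at 7257 and 1545 in Ad-Yap/Taz-KO on HFD. The ratios were not computed without it, so the order of the genotypes in close ratios, such as that of Acvr1c, can depend on Lep. Ltbp2 stood at 1.61 and 1.58 in WT on HFD and at 0.779 and 1.4 in Ad-Yap/Taz-KO on HFD. Divided by the macrophage sum, 1 of the 14 genes that rose remained above WT in both knockout libraries (Gdf3), 3 overlapped (Bmp8a, Inhba and Fst) and 10 were below, against 11.7%, 18.8% and 69.6% of all genes called higher. Divided by the fibroblast sum, 4 remained above (Tgfb2, Gdf15, Gdf3 and Fst), 4 overlapped and 6 were below, against 42.8%, 26.4% and 30.8%.

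On SD the comparison of genotypes asked which differences were present without the fat-rich diet. Of the 47 genes, 3 were called, 1 higher and 2 lower, against 4.71% of all tested genes, 3.21% higher and 1.5% lower. The libraries of the genotypes lay apart in 17 of the 47, against 45% of all tested genes, and the median log2 fold change was -0.131 against -0.014 over all genes. Smad7 fell (log2 fold change -1.01 ± 0.15, adjusted p = 0.0015) and so did Ltbp2 (log2 fold change -0.91 ± 0.21, adjusted p = 0.023), from 382 and 418 in WT to 219 and 206. Gdf15 rose from 362 and 323 in WT to 1181 and 665 (log2 fold change 1.37 ± 0.25, adjusted p = 0.0065). These 3 had the same direction on HFD. The call for Ltbp2 was lost when WT SD replicate 1, WT SD replicate 2, Ad-Yap/Taz-KO SD replicate 1, Ad-Yap/Taz-KO SD replicate 2, WT HFD replicate 1 or WT HFD replicate 2 was left out (adjusted p 0.052 to 0.21). The call was missed too with a model of just the 2 groups compared or the WT HFD libraries averaged (adjusted p 0.068 to 0.085). The call for Gdf15 was lost when WT SD replicate 2 was left out (adjusted p = 0.098). The call was missed too with no filter on low values or a model of just the 2 groups compared (adjusted p 0.051 to 0.06). Tgfb1, Inhbb, Acvr1b and Acvr1c, all called on HFD, had effects on SD between -0.09 and 0.03 on the log2 scale, with adjusted p from 0.85 to 0.97. In Gdf11 and Ltbp3, also called on HFD, the genotypes were separate on SD in the opposite direction without passing the test, Gdf11 with the knockout below WT (log2 fold change -0.91 ± 0.31, adjusted p = 0.15) and Ltbp3 with the knockout above it (log2 fold change 0.74 ± 0.28, adjusted p = 0.2). On this diet 8 of 10 macrophage markers were higher in Ad-Yap/Taz-KO, no adipocyte, fibroblast or endothelial marker was called, and the part of macrophages in the change of Gdf15 was not tested.

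**Figure D4:**
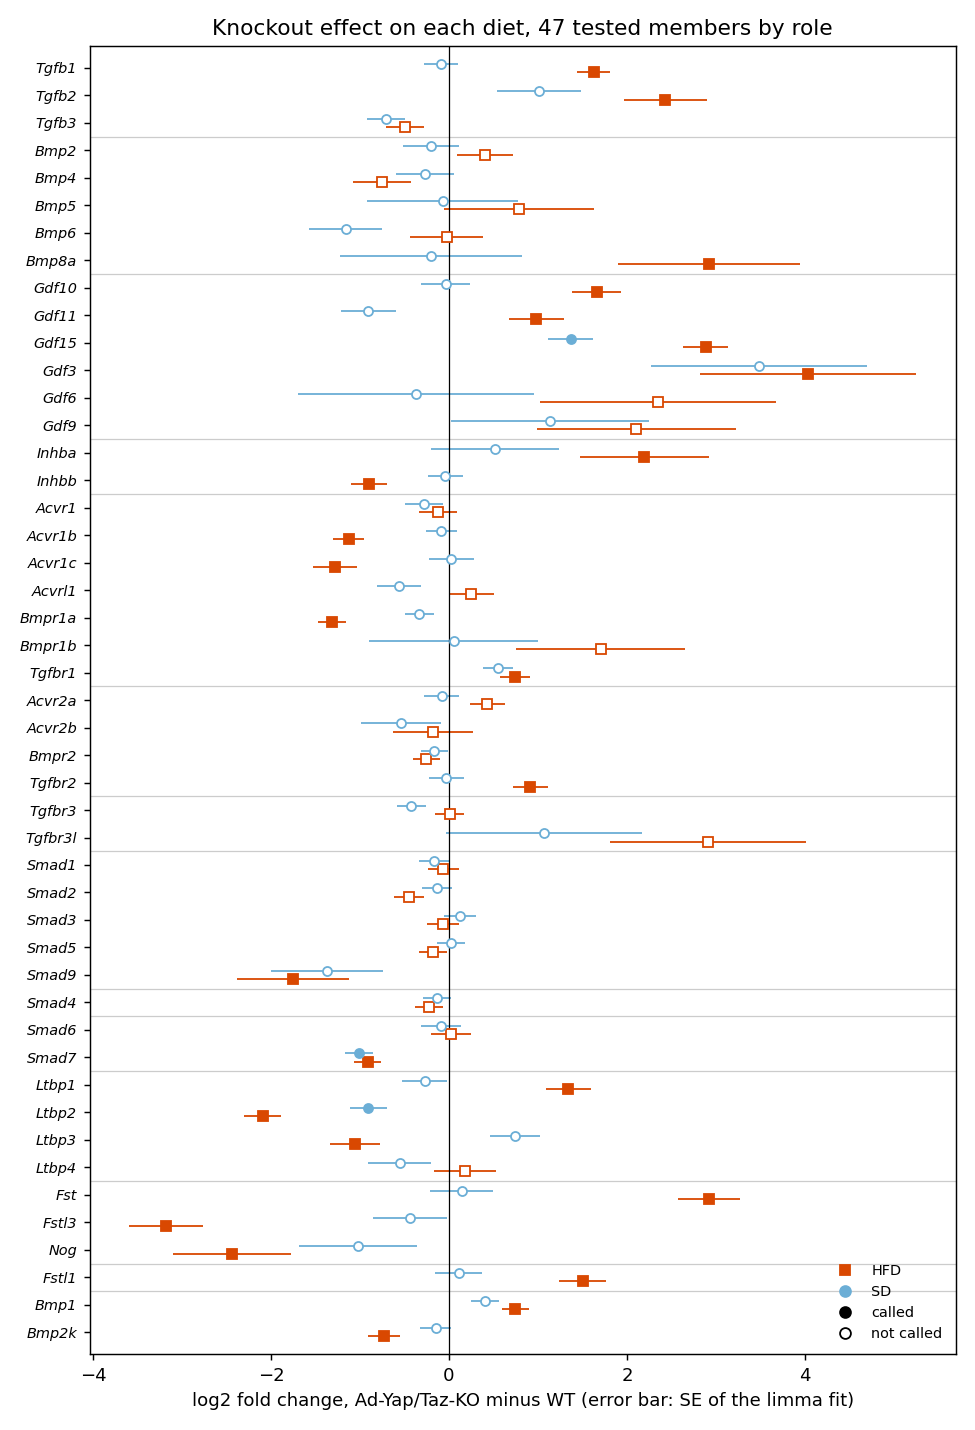
Log2 fold change between knockout and WT (x axis) for the 47 tested genes grouped by role (y axis), on HFD (squares) and SD (circles), with bars for the SE of the limma fit and filled symbols for called genes. On HFD 25 symbols are filled and on SD 3 (Gdf15, Smad7 and Ltbp2), and the value drawn for Gdf3 depends on the pseudocount.

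A test of the difference between the knockout effects on the 2 diets (the interaction of genotype and diet) called 14 of the 47 genes, 8 with a more positive and 6 with a more negative effect on HFD, against 17.4% of all tested genes (8.69% more positive and 8.73% more negative). Tgfb1 differed by 1.72 ± 0.27, adjusted p = 0.0036 on the log2 scale and Fst by 2.78 ± 0.50, adjusted p = 0.0059, and both calls remained under all 10 other settings tried and whichever single library was left out. The effect was more positive on HFD also in Gdf10, Gdf11, Gdf15, Ltbp1, Fstl1 and Tgfbr2, and more negative in Fstl3, Ltbp3, Acvr1c, Ltbp2, Acvr1b and Bmpr1a. Smad7 was not among them (0.10 ± 0.22, adjusted p = 0.78), nor was Tgfbr1 (0.19 ± 0.24, adjusted p = 0.61). Beyond Tgfb1 and Fst, each of these calls was lost when WT SD replicate 1 was left out, and 2 calls remained in all without that library. Averaging the WT HFD libraries to 1 sample also left 2 calls, and with libraries scaled to the same total 11 calls were positive and 2 negative. Changes of the WT libraries with diet enter this contrast as well as those of the knockout, as the plot of selected genes shows.

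**Figure D5:**
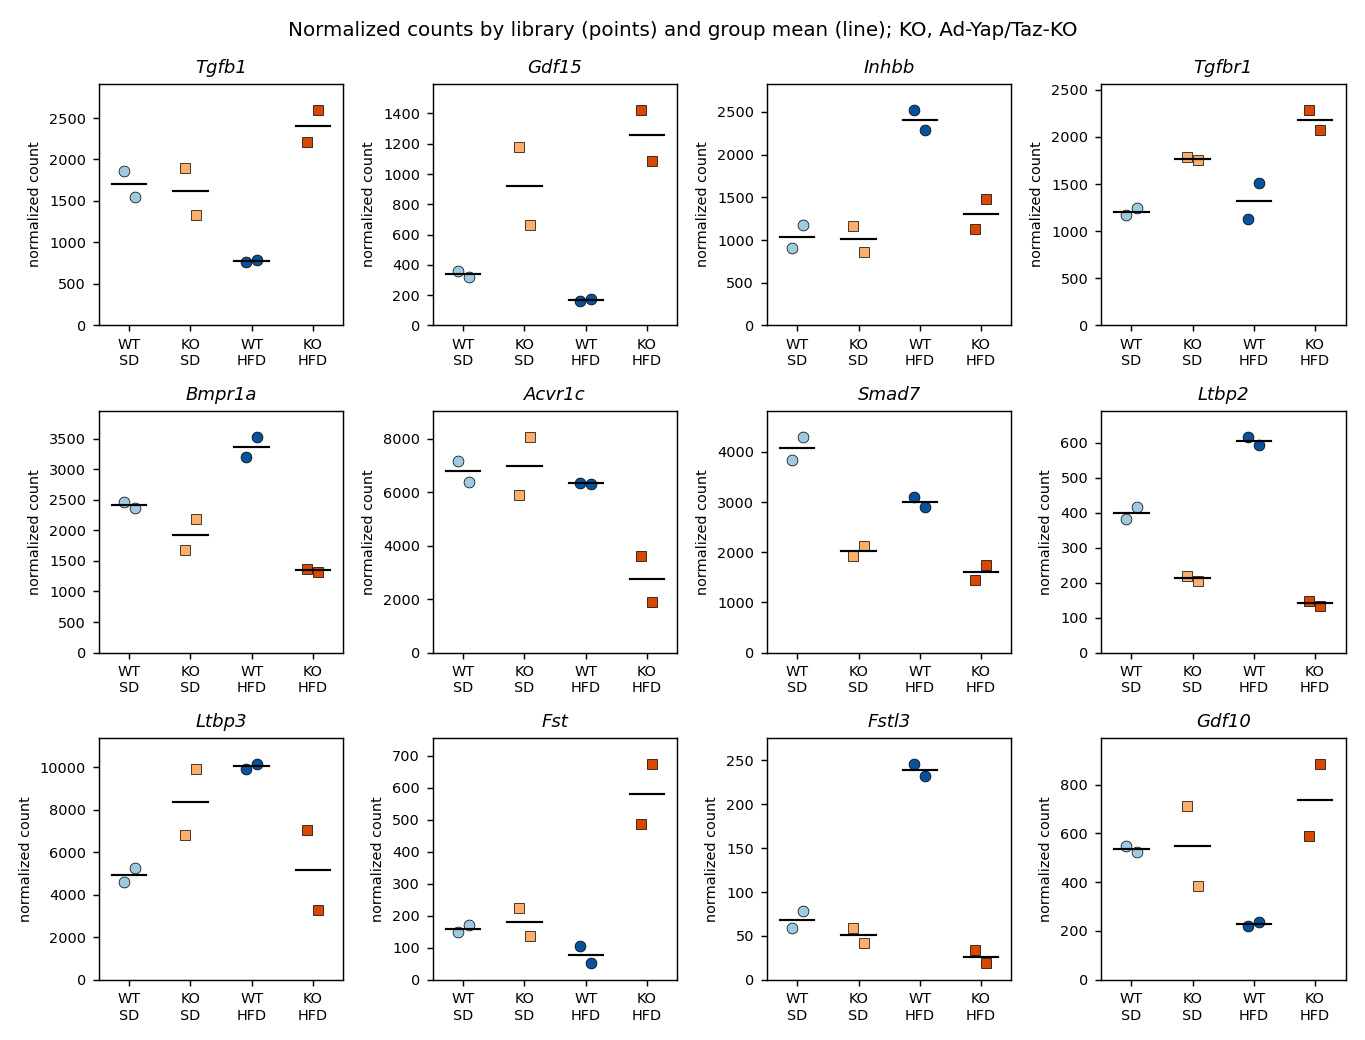
Normalized counts (y axes, from 0) of 12 genes by group (x axes), with points for libraries and a line for the mean of 2. Smad7 and Ltbp2 are lower in Ad-Yap/Taz-KO on both diets, Tgfb1 and Gdf15 are lowest in WT on HFD, and Acvr1c is low in Ad-Yap/Taz-KO on HFD at 3600 and 1881.

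HFD against SD in WT called 10 of the 47 genes, 4 higher and 6 lower, against 18% of all tested genes, 8.74% higher and 9.22% lower. The groups lay apart in 34 of the 47, against 65% of all tested genes, and the median log2 fold change was -0.109 against -0.078 over all genes. Inhbb rose on HFD (log2 fold change 1.22 ± 0.20, adjusted p = 0.0024), as did Fstl3 (log2 fold change 1.80 ± 0.42, adjusted p = 0.012), Ltbp3 (log2 fold change 1.03 ± 0.28, adjusted p = 0.025) and Bmp2k (log2 fold change 0.63 ± 0.18, adjusted p = 0.027). The chain of activin B and an activin-binding protein were both higher in WT adipocyte preparations on HFD. Tgfb1 fell (log2 fold change -1.13 ± 0.19, adjusted p = 0.0024), as did Ltbp1 (log2 fold change -1.15 ± 0.25, adjusted p = 0.0092), Gdf10 (log2 fold change -1.23 ± 0.28, adjusted p = 0.011), Gdf11 (log2 fold change -1.36 ± 0.31, adjusted p = 0.012), Gdf15 (log2 fold change -1.03 ± 0.25, adjusted p = 0.016) and Fst (log2 fold change -1.08 ± 0.35, adjusted p = 0.048). Settings that lost the call for Fst were a pseudocount of 0.1, no filter on low values, quantile normalization, a replicate block and a model of just the 2 groups compared (adjusted p 0.06 to 0.13). Without WT SD replicate 1 none of the 10 was called by limma, with 17 of the 47 at an unadjusted p under 0.05, and without WT SD replicate 2, WT HFD replicate 1 or WT HFD replicate 2 the counts were 6, 5 and 3. With libraries scaled to the same total, 2 genes were higher and 16 lower, with the values of all genes moved by a median of -0.41. With quantile normalization 2 were higher and 7 lower. In the same libraries 2 of 10 adipocyte markers were higher on HFD and 9 of 10 macrophage markers lower. Of 8 endothelial markers 4 were lower, with sums of 26232 to 31753 on SD and 16040 to 16533 on HFD. Of 10 fibroblast and progenitor markers 4 were lower, with sums of 29930 to 36114 and 22200 to 22659. Lymphocyte markers were lower in 2 of 6 tested. The part of these cell types in the values was not tested.

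HFD against SD in Ad-Yap/Taz-KO called 3 of the 47 genes, 1 higher and 2 lower, against 1.07% of all tested genes, 0.383% higher and 0.691% lower. The groups lay apart in 21 of the 47, against 42% of all tested genes, and the median log2 fold change was 0.19 against 0.034. Fst rose (log2 fold change 1.70 ± 0.35, adjusted p = 0.041), and the activin receptors Acvr1b (log2 fold change -1.01 ± 0.17, adjusted p = 0.019) and Acvr1c (log2 fold change -1.41 ± 0.25, adjusted p = 0.021) fell. The rise of Fst did not pass with a replicate block (adjusted p = 0.063), a pseudocount of 0.1, no filter on low values or a model of just the 2 groups compared (adjusted p 0.074 to 0.2). The count was 0 by limma without Ad-Yap/Taz-KO SD replicate 2 or Ad-Yap/Taz-KO HFD replicate 2, with 6 and 9 of the 47 at an unadjusted p under 0.05, and also 0 without either WT HFD library, with 10. It was 1 without either WT SD library and 10 without Ad-Yap/Taz-KO SD replicate 1, and with libraries scaled to the same total 2 genes were lower and 0 higher. The second Ad-Yap/Taz-KO HFD library also had the lowest adipocyte sum of the 8, 95513, and no adipocyte marker was called in this comparison. Of 10 macrophage markers 1 was higher, and of 10 fibroblast and progenitor markers 2 were higher. Each diet comparison shares its libraries with the genotype comparisons, the WT HFD libraries entering that of WT and the knockout on HFD, so like or opposite values in them are not independent.

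Of 52 further genes of the pathway (other antagonists, activators, regulators of the receptors and SMAD proteins), 44 were tested, and 15 were higher and 11 lower in Ad-Yap/Taz-KO on HFD, against 17.1% and 15.1% of all tested genes, with a median log2 fold change of 0.073 against 0.095 over all genes. Chrdl1, a chordin-like BMP antagonist, had the smallest adjusted p of the list and stood at 2498 and 1741 in WT on SD, 1127 and 1289 in Ad-Yap/Taz-KO on SD, 2398 and 2489 in WT on HFD, and 348 and 433 in Ad-Yap/Taz-KO on HFD. It fell on HFD (log2 fold change -2.65 ± 0.19, adjusted p = 9.1e-07) and on SD (log2 fold change -0.79 ± 0.19, adjusted p = 0.034). Htra3, a secreted serine protease, stood at 1592 and 2094 in WT on SD, 1221 and 1077 in Ad-Yap/Taz-KO on SD, 7714 and 7899 in WT on HFD, and 2056 and 2057 in Ad-Yap/Taz-KO on HFD. WT on HFD was above all other groups, and it too was lower in the knockout on both diets (log2 fold change -1.92 ± 0.16, adjusted p = 2.8e-06 on HFD, log2 fold change -0.67 ± 0.16, adjusted p = 0.032 on SD). Tgif1, a corepressor of the SMAD proteins, rose on HFD (log2 fold change 2.39 ± 0.19, adjusted p = 1.9e-06), from 589 and 627 in WT to 2978 and 3406. Nrros, which tethers latent TGF-beta on myeloid cells, rose from 92 and 84 to 650 and 574 (log2 fold change 2.78 ± 0.27, adjusted p = 8.3e-06). Itgav, an integrin chain that activates latent TGF-beta, rose from 1938 and 1708 to 4757 and 4167 (log2 fold change 1.29 ± 0.15, adjusted p = 3.6e-05). Dcn, decorin, a matrix proteoglycan that binds TGF-beta and is also on the fibroblast list, rose from 3307 and 3488 to 9717 and 13120 (log2 fold change 1.73 ± 0.20, adjusted p = 4.2e-05). On SD, 1 gene of this list was higher and 3 were lower, against 3.21% and 1.5% of all tested genes.

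Genes known to respond to TGF-beta or BMP signalling were also counted, and of 21 tested, 9 were higher and 6 lower in Ad-Yap/Taz-KO on HFD, against 17.1% and 15.1% of all tested genes, with a median log2 fold change of 0.678 against 0.095. Id3, a target of BMP signalling, stood at 6413 and 6121 in WT on SD, 2047 and 1866 in Ad-Yap/Taz-KO on SD, 3451 and 3605 in WT on HFD, and 1339 and 1059 in Ad-Yap/Taz-KO on HFD. Every knockout library was below every WT library (log2 fold change -1.57 ± 0.15, adjusted p = 1.1e-05 on HFD, log2 fold change -1.68 ± 0.15, adjusted p = 3.8e-05 on SD). Id2, of the same family, rose on HFD from 82 and 107 to 411 and 543 (log2 fold change 2.32 ± 0.30, adjusted p = 9.5e-05). Pmepa1, which is induced by TGF-beta and limits SMAD activation, stood at 2747 and 3119 in WT on SD, 2154 and 3387 in Ad-Yap/Taz-KO on SD, 9460 and 9659 in WT on HFD, and 3804 and 1818 in Ad-Yap/Taz-KO on HFD. The highest libraries were those of WT on HFD, and the other groups overlapped (log2 fold change -1.86 ± 0.29, adjusted p = 0.00035 on HFD). The collagen genes Col1a2, Col1a1 and Col3a1 rose on HFD, by 2.27 ± 0.24, adjusted p = 2e-05, 2.17 ± 0.26, adjusted p = 5.6e-05 and 1.51 ± 0.21, adjusted p = 0.00015 on the log2 scale, and Col1a1 and Col3a1 are also on the fibroblast list, of which 8 of 10 rose. On SD, 1 gene of this list was higher and 2 were lower, against 3.21% and 1.5% of all tested genes. The counts of both lists are descriptions, and signalling itself was not measured.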

How the data were processed

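Total RNA of the isolated adipocytes had been depleted of ribosomal RNA and made into stranded libraries. Reads were trimmed with Reaper, per the study's methods, and the submitters' processing notes name STAR 2.5.2b, featureCounts 1.5.1 and DESeq2 1.14.1 with genome build GRCm38. The deposited values, of unit score in the sense of normalized counts, are gene counts that the authors divided by 1 factor for each library and then rounded, leaving out reads that aligned to several places or overlapped several genes; the strand setting and the origin of the factors are not given in the sources used here. Since the values are not raw counts, no count model was run on them.

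Genes whose average across the 8 libraries reached 5 normalized counts were tested with limma 3.58.1 in R 4.3.3 on log2(value + 1), as 4 group means in 1 fit with a trended prior (4 residual degrees of freedom, 8.59 prior), with Benjamini-Hochberg adjustment over 18800 genes. Calls needed adjusted p no higher than 0.05 together with a log2 change of 0.59 or more in size. The script was tested on simulated data with the same spread for all genes and groups. The spread of the pairs differed between groups here, and that test does not cover this. Numbers of reads are estimates, from a fit of the value of 1 read to the whole numbers that occur in each library. A single library's value below 3 reads (2.39 to 3.4 normalized counts) is near the counting floor, and intervals cover counting error only.

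Values are given for every gene called in any comparison and for uncalled ones with a mean of at least 500 or paired in function with a called gene; of the 2 other pathway lists, the 6 with the smallest adjusted p on HFD are named. The genes and lists were chosen with earlier results of these data known. Some genes with matching names are not reported here and enter no count of members. Alternatives were other pseudocounts (0.1 and 8), filters (none or a mean of 50), scalings, robust variance moderation, a replicate block, fits of 2 groups, averaging the WT HFD libraries and leaving out each library. All 58 symbols were placed with GENCODE vM21, and promoter windows are from RefSeq.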

Additional observations from a re-analysis of the deposited data

Results flagged for a closer look

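In 14 of the 47 tested genes, against 17.4% of all tested genes, the difference between genotypes was not the same on both diets. This was by limma's test of the interaction of genotype and diet, with values given as the effect on HFD minus that on SD on the log2 scale. Beyond Tgfb1 and Fst, each call was lost when WT SD replicate 1 was left out, and with no filter on low values 4 calls remained. The difference was positive in Tgfb1 by 1.72 (adjusted p = 0.0036), Fst by 2.78 (adjusted p = 0.0059), Ltbp1 by 1.61 (adjusted p = 0.012), Gdf10 by 1.7 (adjusted p = 0.014), Gdf11 by 1.89 (adjusted p = 0.015), Gdf15 by 1.52 (adjusted p = 0.016), Fstl1 by 1.39 (adjusted p = 0.025) and Tgfbr2 by 0.94 (adjusted p = 0.036). It was negative in Fstl3 by -2.74 (adjusted p = 0.011), Ltbp3 by -1.8 (adjusted p = 0.013), Bmpr1a by -0.98 (adjusted p = 0.014), Acvr1b by -1.04 (adjusted p = 0.016), Ltbp2 by -1.19 (adjusted p = 0.018) and Acvr1c by -1.31 (adjusted p = 0.026). In Gdf15 and Ltbp2 the knockout effect passed the test on both diets, in the same direction, and was larger on HFD. Of the marker lists, 9 of 10 macrophage, 8 of 10 fibroblast and 7 of 8 endothelial markers had a more positive knockout effect on HFD than on SD, and 8 of 10 adipocyte markers a more negative one, by the same test; their part in these differences was not tested.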

How the results depend on the processing

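Over the 55 called values of single genes none changed sign, and across the other settings 485 comparisons stayed on the same side of the limits and 101 did not; leaving out 1 library gave 307 and 133. The cause of these changes was not tested. On HFD the number of genes called between genotypes ran from 17 with the WT HFD libraries averaged to 26 with a pseudocount of 8, and from 18 to 25 when 1 library was left out. On SD it was 1 in a fit of only the 2 groups and 1 to 5 with 1 library left out. For diet in WT it was 4 with no filter, 18 with libraries scaled to the same total, 2 with the WT HFD libraries averaged and 0 to 11 with 1 library left out. For diet in the knockout limma called 0 with no filter, 0 in a fit of 2 groups and 0 with the WT HFD libraries averaged (10, 7 and 10 genes at an unadjusted p under 0.05), and 0 to 10 with 1 library left out. For the interaction it was 4 with no filter, 2 with the WT HFD libraries averaged and 2 to 17 with 1 library left out. With no filter more genes entered the adjustment. Scaling to the same total gave 11 positive and 2 negative interaction calls in place of 8 and 6.

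With the replicate number as a block the counts were 24 on HFD and 3 on SD between genotypes, 9 and 2 for diet in WT and in the knockout, and 13 for the interaction. The gene lost was Smad9 between genotypes on HFD, Fst in each diet comparison and Tgfbr2 in the interaction. Deviations of libraries with the same number correlated at -0.3 to 0.11 over 12093 genes. With 2 libraries per group this check cannot show whether the number pairs them. A block with crossed numbers, added after the data were seen, called 3 genes for diet in the knockout. With 2 libraries per group, genes near the counting floor such as Gdf3, Gdf6 and Tgfbr3l are measured with little precision.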
